A study of Mus musculus with 58 samples.

Results

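The frontal cortex of transgenic mice (TG) was compared with that of wild-type mice (WT) over both cohorts of the study at once. The comparison used every array labelled as frontal cortex, 14 of TG mice and 14 of WT mice, 28 of the 58 arrays in the series. The other 30 arrays are of the hippocampus and served only to ask whether a change differed between the regions. All mice were 8 months old and on the C57BL/6J background. The TG mice came from C57BL6J oocytes coinjected with 2 constructs under the Thy1 promoter, and the WT mice carry neither. The construct Thy1-APPKM670/671NL encodes a mutant form of the amyloid precursor protein (APP). The male cohort has mouse numbers 38 to 53 and gave 8 WT and 8 TG arrays. The female cohort has mouse numbers 1 to 14 and gave 6 WT and 6 TG arrays. Sex and range of mouse numbers go together, so sex cannot be told apart from any other difference between the cohorts. The Thy1 cassette of the constructs is made for expression in neurons, not in glia or vessels. The labels do not say how many founder lines the mice stand for.

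APP is cut by beta-secretase and then by gamma-secretase, and the released amyloid-beta peptide aggregates into plaques. In mice of this kind microglia, the resident macrophages of the brain, gather around plaques, phagocytose and change their expression through the receptor Trem2 and its adaptor Tyrobp. Astrocytes near plaques enlarge and raise the filament protein Gfap, while synapses close to plaques are lost.

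Each array gives a log2 expression value per gene, as normalised by the authors, so a difference of 1 is a doubling. Over the 28 arrays the values reached 13.4 and the array medians from 4.73 to 4.85. The effect of the transgenes is the TG minus WT difference in a linear model with genotype and cohort, fitted with limma over 17216 named genes. A gene passed where its p, adjusted by the Benjamini-Hochberg method over all these genes, was under 0.05. "Rose" and "fell" are used only for genes that passed. Tissue was measured whole, so fewer cells of a type and less RNA per cell cannot be told apart, nor can more cells and more RNA per cell. The labels do not say whether littermates were used, and p-values measure the spread between these mice.

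Region labels were checked on the WT arrays. Lamp5, a gene of upper cortical layers, had a mean of 10.8 (SD 0.15, n = 14) in the frontal cortex and 8.47 (SD 0.42, n = 15) in the hippocampus. Prox1, a transcription factor of dentate granule cells, was at 3.31 (SD 0.09) in the frontal cortex and 5.51 (SD 0.44) in the hippocampus. Neither gene's values overlapped between the regions. Of the other genes checked, Rorb, Neurod6, Zbtb20 and Lct also separated the regions, while Fezf2, Rspo1, Tbr1, Wfs1, Dkk3 and Ttr did not. Fezf2, a gene of deep cortical layers, was at 7.23 in the frontal cortex and 7.48 in the hippocampus. In the frontal cortex Xist and the Y-linked Eif2s3y each separated all male from all female arrays.

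Some arrays stood apart. The first principal component held 40.2% of the variance and separated the genotypes, with TG arrays between 6.2 and 35.9 and WT arrays between -20.7 and -11.5. WT male 51 had the highest value on the second component (10.2% of the variance), 27.57, followed by TG males 45 (17.89) and 50 (15.72). All female arrays lay between -10.2 and -6.03 on it. Neutrophil genes were high in 4 arrays: S100a8 was at 10.56 in TG female 4, 7.67 in WT male 42, 6.28 in TG male 44 and 4.25 in TG male 45, and at 3.68 or lower in the other arrays. TG female 4 also had the highest mean of the list of meninges and fibroblasts, 6.88, where the other 27 arrays lay between 4.85 and 6.22. Without these 4 arrays and WT male 51 the pooled comparison called 4907 genes, 2009 higher and 2898 lower. Counts of gene lists below are given with and without these 5 arrays where they differ by over 1.5 times.

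In the pooled comparison 5438 of 17216 genes passed, 31.6% of those tested. Of these, 2220 rose (12.9% of all genes) and 3218 fell (18.7%). The split depends on the scaling: with the medians of the 28 arrays made equal, 1683 rose and 5048 fell. The rises were larger than the falls. Among genes that rose, 412 did so by at least 1.5-fold, 199 by at least 2-fold and 48 by at least 4-fold, while 35 fell by at least 1.5-fold and 0 by at least 2-fold. The median size was 0.28 for genes that rose and -0.22 for genes that fell, and the median change over all genes was -0.02. All 14 TG arrays lay above all 14 WT arrays for 355 genes, 2.06% of those tested. All 14 lay below for 23 genes, 0.134%.

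**Figure D1:**
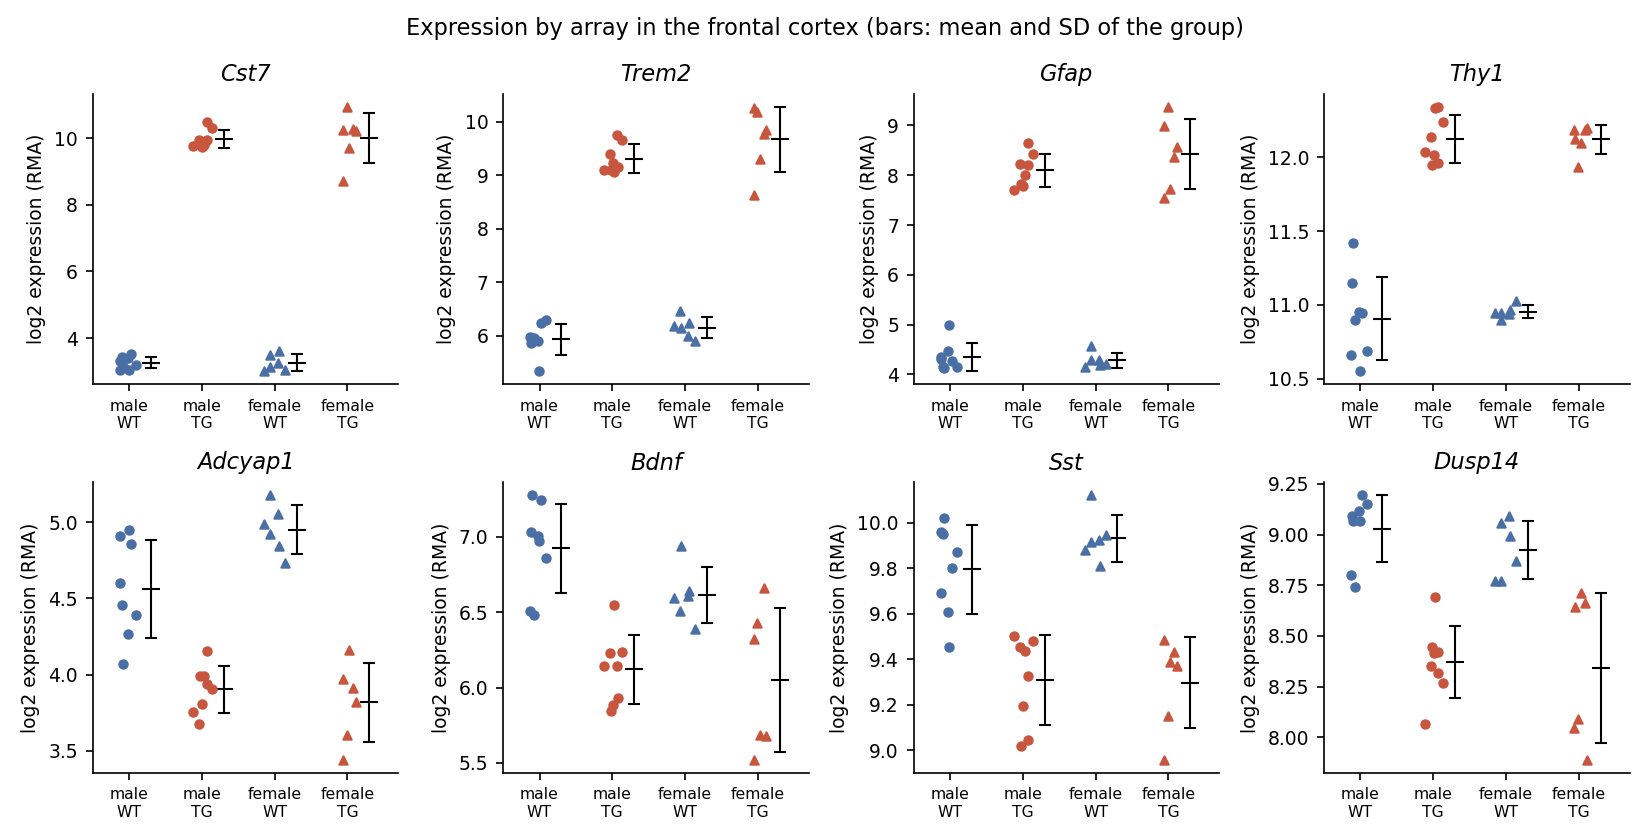
Log2 expression of 8 genes in each of the 28 frontal cortex arrays, by cohort and genotype, each point an array and each bar the group mean with its SD. The TG and WT points of Cst7, Trem2, Gfap, Thy1 and Dusp14 do not overlap, while those of Adcyap1, Bdnf and Sst do.

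The genes of the constructs were examined first. Thy1, a surface protein of neurons whose promoter drives both constructs, had values from 10.55 to 11.42 (median 10.94) in WT and from 11.94 to 12.34 (median 12.13) in TG. All TG arrays were above all WT arrays, and Thy1 rose by 1.20 (SE 0.07, limma, adjusted p = 2.19e-15), a fold of 2.29. The share of the endogenous gene and of Thy1 sequence in the constructs in this rise was not tested. App was at 11.98 to 12.21 (median 12.13) in WT and at 11.78 to 12.10 (median 11.97) in TG. The ranges overlapped, and App fell by 0.17 (SE 0.03, adjusted p = 0.000304). Whether the probes of App read the transgene was not tested.

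Genes that process APP or degrade amyloid-beta changed little. Of 17 measured, 4 rose (23.5%) and 3 fell (17.6%), with a median of -0.03. Over all genes 12.9% rose and 18.7% fell, so the share of falls was near that of all genes. Adam17, an alpha-secretase and sheddase of membrane proteins, rose by 0.65 (SE 0.06, adjusted p = 1.05e-09), from 5.11 to 5.50 in WT to 5.70 to 6.26 in TG with no overlap. Sorl1, which sorts APP away from the compartments where it is cut, fell by 0.28. Bace1, the beta-secretase, fell by 0.18. The amyloid-degrading proteases Ide (0.09) and Mme (-0.08) did not pass. With equal array medians 2 of these genes rose and 7 fell.

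Microglial genes made up most of the 12 largest rises, which also held the astrocyte gene Gfap. Cst7, an inhibitor of lysosomal cysteine proteases, lay between 3.02 and 3.62 (median 3.22) in WT and between 8.72 and 10.95 (median 9.95) in TG. It rose by 6.74 (SE 0.14, adjusted p = 3.63e-26), a fold of 106.8. The WT values are near the low end of the array scale, so the fold depends on the array's background. Clec7a, a receptor for beta-glucans, was at 3.23 to 3.79 (median 3.59) in WT and at 7.74 to 9.51 (median 8.61) in TG. It rose by 5.15 (SE 0.13, adjusted p = 4.31e-24), again with the groups far apart.

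Trem2, the lipid-binding receptor of microglia, was at 5.34 to 6.47 (median 5.98) in WT and at 8.64 to 10.27 (median 9.35) in TG. Its rise was 3.44 (SE 0.12, adjusted p = 1.41e-19), a fold of 10.8. Tyrobp, the adaptor through which Trem2 signals, had a median of 7.60 in WT and 10.93 in TG and rose by 3.31 (SE 0.10). The other rises among the 12 largest were lysozyme Lyz2 (4.08), whose probes were not tested for cross-hybridisation with its near copy Lyz1, Gfap (3.92), the surface antigen Cd52 (3.85), the endosomal glycoprotein Cd68 (3.68), the chemokines Ccl6 (3.61) and Ccl3 (3.26), the pore-forming protein Mpeg1 (3.18) and the secreted glycoprotein Lgals3bp (3.14). In each of the 12 the lowest TG array was above the highest WT array, against 2.06% of all genes tested. The 12 were picked by size of change in these same arrays, so their separation is no separate support.

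Lists of genes show how far the change went beyond these. The list for microglia around plaques had 25 measured genes, of which 23 rose and 0 fell, with a median of 1.94. Dkk2 (0.14) and Timp2 (0.12) did not pass. The smaller rises of this list were Apoe (0.53), the main lipid carrier of the brain, the lysosomal protease Ctsb (0.63) and the growth factor Csf1 (0.72). Igf1, another growth factor, rose by 1.01 (SE 0.11) but overlapped between the groups, because WT male 51 was at 5.81 and the lowest TG array at 5.49.

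Genes of homeostatic microglia rose as well. Of 16 measured 15 rose and 1 fell, with a median of 1.65. Gpr34, a receptor for lysophosphatidylserine, was at 4.70 to 5.88 in WT and at 7.01 to 8.29 in TG, and rose by 2.43 (SE 0.10, adjusted p = 1.09e-18). The fractalkine receptor Cx3cr1 rose by 1.66, the purinergic receptor P2ry12 by 1.21, Tmem119 by 1.27 and Sall1, a transcription factor of microglial identity, by 0.45. The gene that fell, Mef2c (-0.20), is also expressed by neurons. Csf1r, the receptor on which microglia depend for survival, rose by 1.64 (SE 0.07, adjusted p = 1.6e-18). Among its ligands Csf1 rose by 0.72 and the neuronal Il34 fell by 0.37.

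Genes of the microglial surface and of phagocytosis formed several more lists. Among 7 Fc receptor genes 6 rose (median 1.41), with the inhibitory Fcgr2b (2.63) and the shared signalling chain Fcer1g (2.48) as examples. Of 16 complement genes 7 rose and 1 fell. Subunits of the first component rose (C1qb 2.48, C1qa 2.37 and C1qc 2.34), as did the receptors C3ar1 (1.67) and C5ar1 (0.19). The classical proteases C1ra (0.07) and C1s1 (0.00), and the factors C2 (0.04) and Cfb (0.04), did not pass. The inhibitors Serping1 (0.79) and Clu (0.55) rose, and Cd55, a brake on complement at the cell surface, fell by 0.12. Of 22 integrin genes 8 rose and 0 fell, with the leukocyte subunits Itgb2 (2.71), Itgax (1.97) and Itgam (1.90) at the top and a median of only 0.09. With equal array medians 7 integrin genes rose and 4 fell.

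All 5 measured genes of the phagocyte NADPH oxidase, which makes superoxide, rose (median 0.65). Cyba, its membrane subunit, was at 4.42 to 5.67 in WT and at 7.31 to 8.65 in TG, and rose by 2.86 (SE 0.12, adjusted p = 1.76e-18). Of 15 genes for inhibitory immune receptors and their phosphatase 10 rose and 2 fell. The phosphatase Ptpn6 rose by 2.35 and the collagen receptor Lair1 by 1.58 (SE 0.07). The 2 that fell are ligands displayed by neurons, Cd200 (-0.38) and Cd47 (-0.19), while the receptor Sirpa (0.14) and the receptor Cd200r1 (0.02) did not pass.

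Signals between cells were mixed. Of 20 Toll-like and other pattern receptor genes 13 rose and 0 fell (median 0.29), with Cd14 at 2.69 and Tlr2 at 1.63, while Tlr6, Tlr8 and Tlr9 lay between -0.02 and 0.05. Of 20 chemokine genes 11 rose and 1 fell. Ccl3 was at 2.93 to 3.35 (median 3.21) in WT and at 5.09 to 7.40 (median 6.56) in TG, and rose by 3.26 (SE 0.17). Ccl2, the classical attractant of blood monocytes, was at 0.04 and did not pass. Cx3cl1, the fractalkine that neurons present to microglia, fell by 0.48, and its lowest WT array, at 8.67, was above its highest TG array, at 8.62. Of 39 cytokine and cytokine receptor genes 20 rose and 2 fell, and with equal array medians 19 rose and 4 fell. The largest rises were those of the receptors Tgfbr2 (1.49, SE 0.10) and Tnfrsf1a (1.23, SE 0.08). Among ligands, Il1a rose by 0.42 and Il1b by 0.14, whereas Il6 (0.09), Tnf (0.00) and Il10 (-0.06) did not pass.

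Antigen presentation and interferon genes moved nearly as whole lists. Each of the 12 measured genes of MHC class I presentation rose (median 0.85), led by the immunoproteasome subunit Psmb8 (2.10), the light chain B2m (1.93) and the heavy chains H2-D1 and H2-K1 (both 1.92), which are near copies of each other. B2m was at 9.12 to 9.82 in WT and at 10.94 to 12.03 in TG. Of 10 genes of MHC class II presentation 9 rose (median 0.93). Its invariant chain Cd74 was at 3.96 to 4.85 in WT and at 5.43 to 7.65 in TG, a rise of 1.81 (SE 0.18). Ciita, the transactivator of this class, was at -0.03 and did not pass. Of 20 interferon response genes 19 rose (median 1.17), from Lgals3bp (3.14) and Ifi27l2a (2.91) to Zbp1 (0.21), and Mx2 (0.06) did not pass. Irf8, a transcription factor of macrophages that is also interferon-inducible, rose by 2.43 (SE 0.11).

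Promoters of the interferon and class I genes are shown because the interferon-stimulated response element (ISRE), the site of the factors that interferon activates, can be read in them. The 250 bases before the start site (RefSeq, GRCm38.p6) were available for 13741 genes and were searched on both strands for GAAANNGAAA, where N is any base. The letters were found in 3.11% of these promoters, in 4.27% of genes that rose, in 2.94% of genes that fell and in 6 of the 14 interferon response genes and 1 of the 10 class I genes with a promoter, B2m. The 4 with the largest rises among the interferon and class I genes that hold the letters are printed, each read 5′ to 3′ along the gene, with the matches in capitals. They are on chr2:122147437-122147686 (plus strand, B2m), chr8:71537473-71537722 (minus strand, Bst2), chr7:104465194-104465443 (minus strand, Trim30a) and chr3:142559794-142560043 (plus strand, Gbp3).
B2m: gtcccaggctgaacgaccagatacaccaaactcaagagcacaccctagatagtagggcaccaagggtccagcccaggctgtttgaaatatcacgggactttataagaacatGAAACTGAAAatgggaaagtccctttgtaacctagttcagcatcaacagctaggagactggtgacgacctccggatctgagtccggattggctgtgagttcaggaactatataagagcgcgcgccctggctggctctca
Bst2: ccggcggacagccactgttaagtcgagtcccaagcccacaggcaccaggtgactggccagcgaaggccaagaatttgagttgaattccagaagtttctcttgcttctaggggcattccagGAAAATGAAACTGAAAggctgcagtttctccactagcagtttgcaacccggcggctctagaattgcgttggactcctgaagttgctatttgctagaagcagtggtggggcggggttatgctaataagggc
Trim30a: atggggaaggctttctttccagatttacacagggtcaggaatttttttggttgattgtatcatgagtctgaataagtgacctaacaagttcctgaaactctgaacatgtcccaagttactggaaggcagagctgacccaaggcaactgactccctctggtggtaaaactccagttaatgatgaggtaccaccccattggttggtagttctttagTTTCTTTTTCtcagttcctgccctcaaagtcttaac
Gbp3: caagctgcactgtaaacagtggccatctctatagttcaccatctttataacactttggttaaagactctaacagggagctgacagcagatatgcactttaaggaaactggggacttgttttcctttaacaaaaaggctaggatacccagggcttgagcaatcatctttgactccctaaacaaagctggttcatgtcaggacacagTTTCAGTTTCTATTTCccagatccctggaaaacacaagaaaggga

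Bst2, which tethers virus particles to the cell, and Gbp3, a guanylate-binding protein, each held 2 overlapping matches. In Trim30a and Gbp3 the letters are on the opposite strand. The matches begin 139 bases before the start site in B2m and 36 bases before it in Trim30a. Bst2 rose by 1.87 (SE 0.16), Trim30a by 1.73 (SE 0.14) and Gbp3 by 1.43 (SE 0.11). A match is a run of letters, and binding was not measured.

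Lysosomal genes and lipid genes rose together with these. Of 27 lysosomal genes 23 rose and 1 fell (median 1.03). In 19 of the 27 all TG arrays were above all WT arrays, against 2.06% of all genes tested. The proteases Ctsz (2.67, SE 0.10) and Ctss (2.18, SE 0.08) were at the top, with the glucuronidase Gusb at 2.34. Progranulin, Grn, rose by 1.72. Smpd1, the acid sphingomyelinase, fell by 0.22, and Psap (0.02), Gaa (-0.02) and Mcoln1 (-0.12) did not pass. Of 17 genes of glial lipid transport 15 rose and 1 fell. Lpl, which releases fatty acids from lipoproteins, was at 5.14 to 6.25 (median 5.69) in WT and at 6.92 to 8.12 (median 7.61) in TG, a rise of 1.94 (SE 0.11). Ch25h, which makes 25-hydroxycholesterol, rose by 1.92 (SE 0.16), and the exporter Abcg1 fell by 0.16. Of 13 genes of cholesterol synthesis 11 rose by 0.13 to 0.43, but with equal array medians 5 did.

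Genes near human risk variants for Alzheimer's disease overlap with the lists above. Of 21 measured 11 rose and 3 fell. Beside Trem2, the phospholipase Plcg2 rose by 1.32 (SE 0.10, adjusted p = 1.91e-11), Abi3 by 1.19 and the phosphatase Inpp5d by 0.91. The genes that fell were Sorl1 (-0.28), the kinase Ptk2b (-0.21) and Mef2c (-0.20).

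Genes of dividing cells changed by small amounts. Of 27 genes of the cell cycle and DNA replication 10 rose and 1 fell, with a median of 0.10. In none did the groups separate, where 2.06% of all genes separated upward and 0.134% downward. Cyclin D1, Ccnd1, was at 7.69 to 8.05 in WT and at 7.85 to 8.76 in TG and rose by 0.34 (SE 0.07). Cdk1 rose by 0.34, the topoisomerase Top2a by 0.25 and Mcm7 by 0.22. The gene that fell, the cyclin Ccne1 (-0.41, SE 0.07), had the largest change of the list by size. In males alone 2 genes of the list rose and 1 fell, and in females alone 8 rose and 1 fell. The replication gene Tyms (0.00) and the mitotic kinases Aurka (-0.03) and Aurkb (0.03) did not pass.

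**Figure D2:**
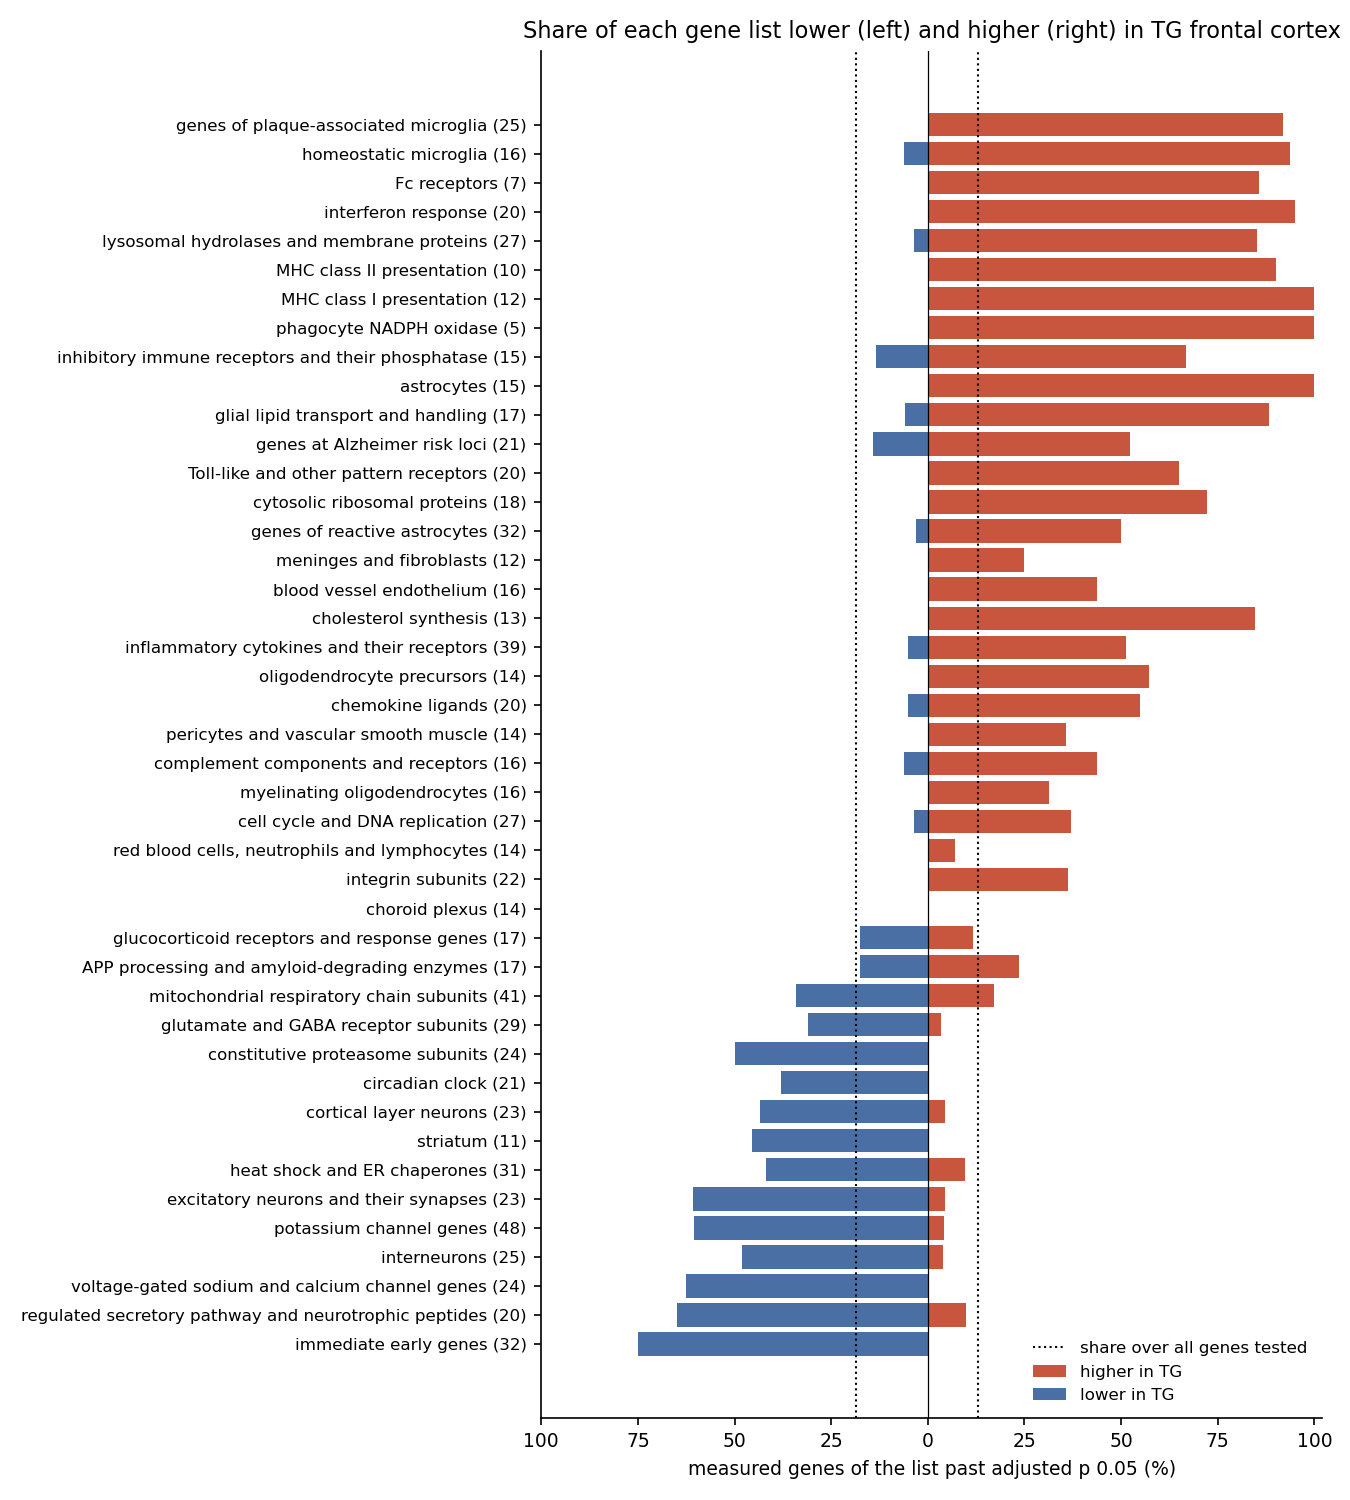
Share of the measured genes of each of 43 lists that rose (right) or fell (left) in TG frontal cortex, in percent, with the number measured in brackets and lists ordered by their median change. Dotted lines mark the shares over all genes, 12.9% higher and 18.7% lower. Microglial, lysosomal, interferon and astrocyte lists extend to the right and neuronal lists to the left.

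All 15 genes of the general astrocyte list rose, with a median of 0.43. In 3 of the 15 all TG arrays were above all WT arrays, against 2.06% of all genes tested. Gfap was at 4.13 to 4.99 (median 4.28) in WT and at 7.55 to 9.37 (median 8.21) in TG, a rise of 3.92 (SE 0.14, adjusted p = 1.41e-19) and a fold of 15.1. The water channel Aqp4 rose by 1.05. The calcium-binding S100b rose by 0.59 (SE 0.05) and the potassium channel Kcnj10, which clears potassium released by neurons, by 0.58 (SE 0.06). The glutamate transporters Slc1a3 and Slc1a2 rose by 0.38 and 0.22 and glutamine synthetase, Glul, by 0.21. Of 32 genes of reactive astrocytes 16 rose and 1 fell. Serpina3n, a secreted protease inhibitor, was at 5.02 to 5.59 in WT and at 7.34 to 9.82 in TG and rose by 2.61 (SE 0.17). Vimentin, Vim, rose by 1.48 and the hyaluronan receptor Cd44 by 0.69. Lcn2 (0.32), Timp1 (0.36) and Emp1 (0.07) did not pass, and the gene that fell, Ptgs2 (-0.56), is also an immediate early gene of neurons.

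Neuronal genes fell by smaller amounts. The 12 largest falls lay between -0.86 and -0.65. Adcyap1, which encodes the neuropeptide PACAP, was at 4.07 to 5.18 (median 4.85) in WT and at 3.44 to 4.16 (median 3.91) in TG. The groups overlapped only narrowly, and Adcyap1 fell by 0.86 (SE 0.09, adjusted p = 1.43e-08), to WT 1.82-fold above TG. Tafa1, a secreted neuronal peptide, had a median of 7.08 in WT and 6.20 in TG and fell by 0.80 (SE 0.10). Bdnf, a neurotrophin, was at 6.38 to 7.27 (median 6.75) in WT and at 5.52 to 6.66 (median 6.15) in TG and fell by 0.70 (SE 0.11). The others were the somatostatin receptor Sstr2 (-0.76), the prohormone convertase Pcsk1 (-0.74), the phosphatase Dusp1 (-0.73), the small GTPase Rnd1 (-0.70), the glutamate receptor Grm8 (-0.69), the potassium channel subunit Kcnab1 (-0.69), the synaptic immediate early gene Arc (-0.67), the synaptic adhesion protein Lrrc4c (-0.66) and the secreted Nell1 (-0.65). Arc did not pass without the 5 arrays that stood apart (adjusted p = 0.0713) or without the cohort term (adjusted p = 0.0555).

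Immediate early genes, which neurons switch on within minutes of firing, fell most as a list. Of 32 measured 24 fell and 0 rose, with a median of -0.42, and 19 fell without the 5 arrays that stood apart. In males alone 22 fell and 0 rose, and in females alone 10 fell and 1 rose. Fos fell by 0.62, Nr4a1 by 0.58, Egr1 by 0.48 and Npas4 by 0.56. Ier5 was at 6.02 to 6.91 in WT and at 5.83 to 6.45 in TG and fell by 0.52 (SE 0.07). Dusp14, a phosphatase that acts on MAP kinases, was at 8.74 to 9.19 (median 9.06) in WT and at 7.89 to 8.71 (median 8.38) in TG, so no TG array reached the WT range, and fell by 0.63 (SE 0.08, adjusted p = 2.34e-07). Jund (0.06), Klf4 (0.04), Per1 (-0.14) and Btg2 (-0.23) did not pass. The list also differed between the cohorts: its mean in WT was 6.71 (SD 0.17, n = 8) in males and 6.22 (SD 0.15, n = 6) in females, so TG males, at 6.27 (SD 0.10), lay at the level of WT females.

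Peptides and proteins of the regulated secretory pathway fell with them. Of 20 measured 13 fell and 2 rose. The granins Chga (-0.55), Scg2 (-0.51) and Chgb (-0.33), the peptide precursor Vgf (-0.50) and Nptx1 (-0.41), a synaptic pentraxin, fell. Igf1 (1.01), already given among the microglial genes, and Scg3 (0.27) rose, and the carboxypeptidase Cpe (0.05) did not pass.

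Some of these promoters hold the cAMP response element (CRE), the site of the activity-dependent factor CREB, and are shown for that reason. The letters TGACGTCA were found in 2.56% of the 13741 promoters, in 4.36% of genes that fell, in 2.27% of genes that rose and in 2.12% of those that did not pass. They were in 2 of 25 immediate early genes, 3 of 13 secretory genes and 1 of 19 interneuron genes with a promoter. The ISRE letters were in 4, 3 and 2 genes of the same lists, no fewer than the CRE letters. The 4 largest falls among immediate early, secretory and interneuron genes that hold them are printed here, with the letters in capitals, and lie on chr13:75089607-75089856 (plus strand, Pcsk1), chr17:26508473-26508722 (minus strand, Dusp1), chr16:23890845-23891094 (minus strand, Sst) and chr1:79440027-79440276 (minus strand, Scg2).
Pcsk1: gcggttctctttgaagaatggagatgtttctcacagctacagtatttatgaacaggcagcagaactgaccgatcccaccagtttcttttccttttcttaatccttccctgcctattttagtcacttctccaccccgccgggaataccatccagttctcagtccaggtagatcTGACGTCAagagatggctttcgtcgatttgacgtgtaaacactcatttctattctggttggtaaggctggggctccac
Dusp1: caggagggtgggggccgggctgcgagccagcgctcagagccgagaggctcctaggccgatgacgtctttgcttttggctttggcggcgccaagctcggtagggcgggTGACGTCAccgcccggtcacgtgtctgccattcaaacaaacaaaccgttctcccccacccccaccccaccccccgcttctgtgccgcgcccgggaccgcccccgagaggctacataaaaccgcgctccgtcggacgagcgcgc
Sst: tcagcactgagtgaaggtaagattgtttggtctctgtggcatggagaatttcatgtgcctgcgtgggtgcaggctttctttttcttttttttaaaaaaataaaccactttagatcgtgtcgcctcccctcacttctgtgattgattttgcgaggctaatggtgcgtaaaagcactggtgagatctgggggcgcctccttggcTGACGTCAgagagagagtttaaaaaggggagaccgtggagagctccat
Scg2: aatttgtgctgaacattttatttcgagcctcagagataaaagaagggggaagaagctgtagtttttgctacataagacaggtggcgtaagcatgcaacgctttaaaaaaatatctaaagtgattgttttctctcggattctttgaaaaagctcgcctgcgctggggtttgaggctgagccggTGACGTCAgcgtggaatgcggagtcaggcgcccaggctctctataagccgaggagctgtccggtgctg

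The letters begin 48 bases before the start site in Sst, 68 in Scg2, 78 in Pcsk1 and 143 in Dusp1. Other letters searched on both strands were CACGTG (E-box), found in 8.79% of all promoters and in 6 of 23 lysosomal and 6 of 25 immediate early genes, GAGGAAGT (PU.1), in 2.71% of all, 3.94% of genes that rose and 0 of 21 and 0 of 12 genes of microglia around plaques and of homeostatic microglia, and the heat shock element GAANNTTCNNGAA, in 64 of all.

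Genes of interneurons, the inhibitory cells of the cortex, fell in 12 of 25 and rose in 1 (median -0.23). Sst, somatostatin, was at 9.45 to 10.12 (median 9.90) in WT and at 8.96 to 9.50 (median 9.38) in TG, with an overlap of a few arrays, and fell by 0.55 (SE 0.07, adjusted p = 1.2e-07). Tac1, the precursor of substance P, was at 7.51 to 8.32 in WT and at 6.77 to 7.63 in TG and fell by 0.61 (SE 0.08). Cort fell by 0.51, Npy by 0.34, Cck by 0.30, Pvalb by 0.29 and Vip by 0.27. The GABA-synthesising enzymes Gad1 (-0.24) and Gad2 (-0.22) and the calcium-binding Calb2 (0.13) and Calb1 (-0.16) did not pass. WT male 51 had the highest mean of the list, 7.80, against 7.23 to 7.47 in the other WT males, and the count without the 5 arrays was again 12.

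Excitatory neurons and their synapses showed the same direction. Of 23 genes 14 fell and 1 rose (median -0.20). Rab3a, a GTPase of synaptic vesicles, had a median of 10.27 in WT and 9.87 in TG, with its lowest WT array at 9.95 and its lowest TG array at 9.47, and fell by 0.41 (SE 0.05, adjusted p = 3.26e-07). The transcription factor Neurod6 fell by 0.61, the vesicular glutamate transporters Slc17a6 and Slc17a7 by 0.44 and 0.31, and the active zone scaffold Pclo by 0.32. Camk2a rose by 0.21, while the postsynaptic scaffolds Dlg4 (0.04), Shank1 (-0.03) and Shank3 (0.10) did not pass. Among 23 genes of cortical layers 10 fell, 1 rose and 12 did not pass. As examples, Fezf2 (-0.47), Foxp2 (-0.41) and Bcl11b (-0.31) fell, and Rorb (-0.06) and Cux2 (0.18) did not pass. Layers were not compared with each other.

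Ion channel genes were among the lists with the largest share of falls. Of 48 potassium channel genes 29 fell and 2 rose (median -0.21), and of 24 genes of voltage-gated sodium and calcium channels 15 fell and 0 rose (median -0.24). Kcnab1 was at 6.71 to 7.77 in WT and at 6.01 to 7.24 in TG (-0.69, SE 0.10). Kcnf1 (-0.63) and Kcnv1 (-0.59), which are silent subunits that modify other channels, and Kcnq3 (-0.56), a subunit of the M-current, fell too. The 2 that rose were Kcnk6 (1.11, SE 0.08), and the astrocyte channel Kcnj10. Sodium channel subunits Scn3b (-0.46), Scn2a (-0.27), Scn8a (-0.25) and Scn1a (-0.24) and the calcium channel subunits Cacnb2 (-0.39) and Cacnb4 (-0.26) fell, whereas the pore-forming Cacna1a (-0.14), Cacna1b (-0.03) and Cacna1c (-0.10) did not pass. Of 29 glutamate and GABA receptor genes 9 fell and 1 rose, with a median of -0.08, and with equal array medians 14 fell. Gabra3 (-0.36, SE 0.05) and Gabrb2 (-0.33, SE 0.05) fell, and the AMPA receptor genes Gria1 (-0.07), Gria2 (0.04) and Gria3 (-0.04) did not pass.

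The 23 genes for which every TG array was below every WT array, named here after their values were seen, had changes from -0.63 to -0.19. Beside Dusp14 and Cx3cl1 they include Gpr137c (-0.61), Cdk5r1 (-0.34), the activator of the kinase Cdk5, the synaptic adhesion protein Nlgn3 (-0.35), the sodium leak channel Nalcn (-0.33), the synaptic scaffold Dlg3 (-0.26), Amph (-0.28), which acts in endocytosis of synaptic vesicles, and Gnaq (-0.19), a G protein subunit. Cdk5r1 was at 7.91 to 8.07 in WT and at 7.40 to 7.78 in TG.

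**Figure D3:**
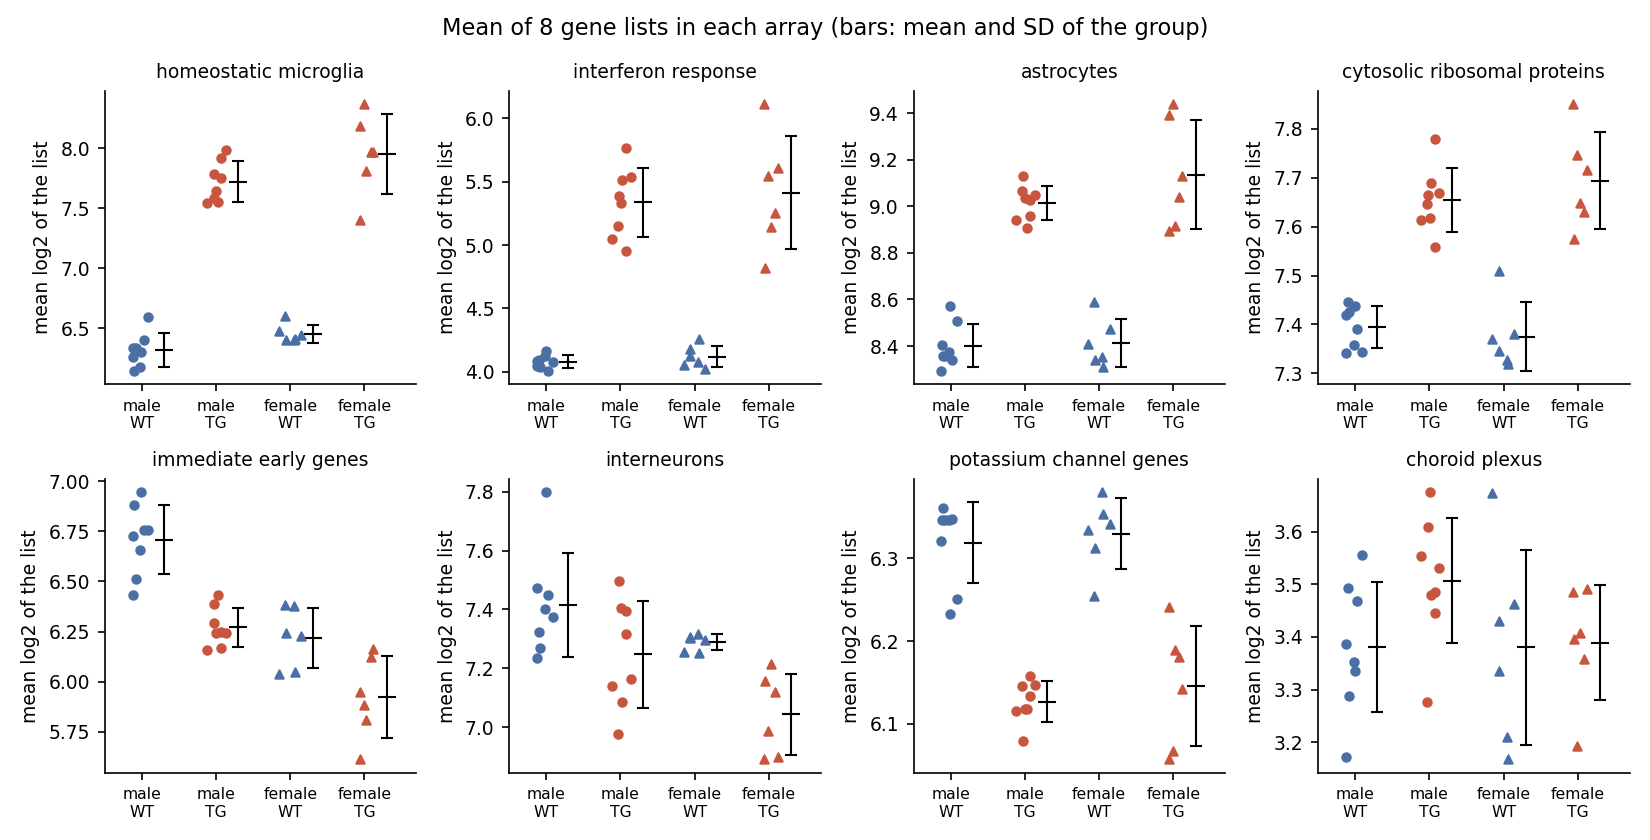
Mean log2 value of 8 gene lists in each frontal cortex array, by cohort and genotype, each point an array and each bar the group mean with its SD. TG points lie above WT points for homeostatic microglia, interferon response, astrocytes and ribosomal proteins, below them within each cohort for potassium channels and overlap with them for the choroid plexus.

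Other cells of the tissue changed less. Among 16 genes of myelinating oligodendrocytes 5 rose (median 0.12), led by transferrin, Trf (1.08, SE 0.12), and Cldn11 (0.53, SE 0.11). Mbp rose by 0.18, and Mog (0.11), Mobp (0.25) and Opalin (0.34) did not pass. With equal array medians, and also without the 5 arrays, 2 of the 16 rose. Among 14 genes of oligodendrocyte precursors 8 rose, such as Olig1 (0.39) and Pdgfra (0.29). Of 16 endothelial genes 7 rose and of 14 genes of pericytes and smooth muscle 5 did, and without the 5 arrays 4 and 3 did. Flt1, a VEGF receptor, rose by 0.35 and Notch3, a receptor of mural cells, by 0.36, while the endothelial junction genes Cdh5 (0.05), Pecam1 (0.11) and Cldn5 (0.20) did not pass.

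Lists for tissue that may be caught in a dissection were measured for the same reason. None of 14 choroid plexus genes passed, and their mean lay between 3.17 and 3.67 in WT and between 3.19 and 3.67 in TG arrays, although Ttr alone ranged from 3.30 to 9.70 in WT. Of 12 genes of meninges and fibroblasts 3 rose: Ptgds (0.54, SE 0.20, adjusted p = 0.0377), Mgp (0.41) and Igfbp2 (0.34), and with equal array medians 1 rose. Ptgds did not pass with equal array medians (adjusted p = 0.0519) and lost its call when any of 10 arrays was left out. Of 11 genes of the striatum 5 fell, Tac1, Penk (-0.39), Drd1 (-0.35), Rarb (-0.35) and Foxp1 (-0.28), while Drd2 (-0.02), Rgs9 (-0.03) and Gpr6 (0.01) did not pass. Of 14 genes of red blood cells, neutrophils and lymphocytes Cd3g (0.18, adjusted p = 0.00959) rose, at 2.88 to 3.33 in WT and 2.91 to 3.47 in TG. Cd3g did not pass with equal array medians (adjusted p = 0.0544). The T cell genes Cd3e (0.02), Cd8a (0.03) and Cd4 (0.04) did not pass. The part of these tissues in the results above was not tested beyond these values.

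Housekeeping machinery split by kind. Of 18 measured genes of cytosolic ribosomal proteins 13 rose and 0 fell (median 0.29). The list has 64 members, and those without a row in the table were not analysed here. Rps14 was at 9.58 to 9.91 in WT and at 10.10 to 10.56 in TG, without overlap (0.52, SE 0.04, adjusted p = 5.81e-11), and Rpl26 rose by 0.45 (SE 0.05). Of 24 constitutive proteasome subunits 12 fell and 0 rose, by 0.28 at most (Psmb7), and 8 fell without the 5 arrays and 19 with equal array medians. The immunoproteasome subunits Psmb8, Psmb9 (1.07) and Psmb10 (0.25) rose. Of 41 genes of the mitochondrial respiratory chain 14 fell (34.1%) and 7 rose (17.1%), against 18.7% and 12.9% of all genes. Examples are Ndufa1 (0.26) and Cox4i1 (0.22), which rose, and Uqcrfs1 (-0.19) and Ndufs1 (-0.18), which fell. With equal array medians 21 genes of this list fell and 5 rose.

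Of 31 genes of heat shock and ER chaperones 13 fell and 3 rose in the pooled comparison. In males alone 17 fell and 3 rose, with a median of -0.26, and in females alone 4 fell and 3 rose, with a median of 0.01. The difference between the cohorts was tested per gene only and passed for 0 genes. The inducible chaperone genes Hspa1b (-0.63) and Hspa1a (-0.30), which are near-identical copies, and the co-chaperones Dnajb1 (-0.46), Dnajb5 (-0.44) and Dnajb4 (-0.38) fell. Hspb8 (0.53, SE 0.08), a small heat shock protein, and the stress factor Atf3 (0.54) rose, and the ER chaperones Hspa5 (-0.26), Hsp90b1 (0.00) and Calr (-0.06) did not pass. Of 21 clock genes 8 fell, among them Arntl (-0.39, SE 0.08) and Cry2 (-0.27, SE 0.05), while Per2 (-0.21), Nr1d1 (-0.15) and Dbp (0.10) did not pass. Of 17 glucocorticoid receptors and response genes 2 rose, the metallothioneins Mt2 (0.61) and Mt1 (0.36), and 3 fell, Errfi1 (-0.34), Klf9 (-0.23) and the receptor Nr3c1 (-0.15). These shares, 11.8% higher and 17.6% lower, were near those over all genes, 12.9% and 18.7%. The acute response genes Sgk1 (0.28), Fkbp5 (0.27) and Tsc22d3 (-0.10) did not pass.

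The cohorts were then compared, to ask whether the pooled effect stands for both. Males alone gave 3534 genes (20.5%) and females alone 3257 (18.9%), from groups of 8 and of 6. In both cohorts 1074 genes rose and 1036 fell, and 1 gene passed in opposite directions. Of the genes that rose in males 70.9% rose in females, and of those that rose in females 71.3% rose in males. For falls these shares were 51.3% and 59.2%. Of the genes that passed in a cohort, between 94.8% and 97.2% had the same sign in the other. Over all genes the 2 sets of changes had a Pearson r of 0.879, which describes genes and not replicates, and the 2 cohorts share no mice.

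The difference of the effect between the cohorts passed for 0 genes (0%, limma, smallest adjusted p = 0.639), and 1130 genes had an unadjusted p under 0.05, where 860.8 are expected without any difference. A trended, robust fit also gave 0. The 3 genes of smallest p were Zfp109 (-0.30 in males and 0.15 in females), 2010315B03Rik (0.27 and -0.31) and Fras1 (0.20 and -0.34), and none of them passed in the pooled comparison. For Cst7 the female minus male difference was 0.04 (SE 0.28), for Gfap 0.39 (SE 0.28), for Serpina3n 0.53 (SE 0.34) and for Adcyap1 -0.47 (SE 0.17, unadjusted p = 0.00922, adjusted p = 0.712).

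**Figure D4:**
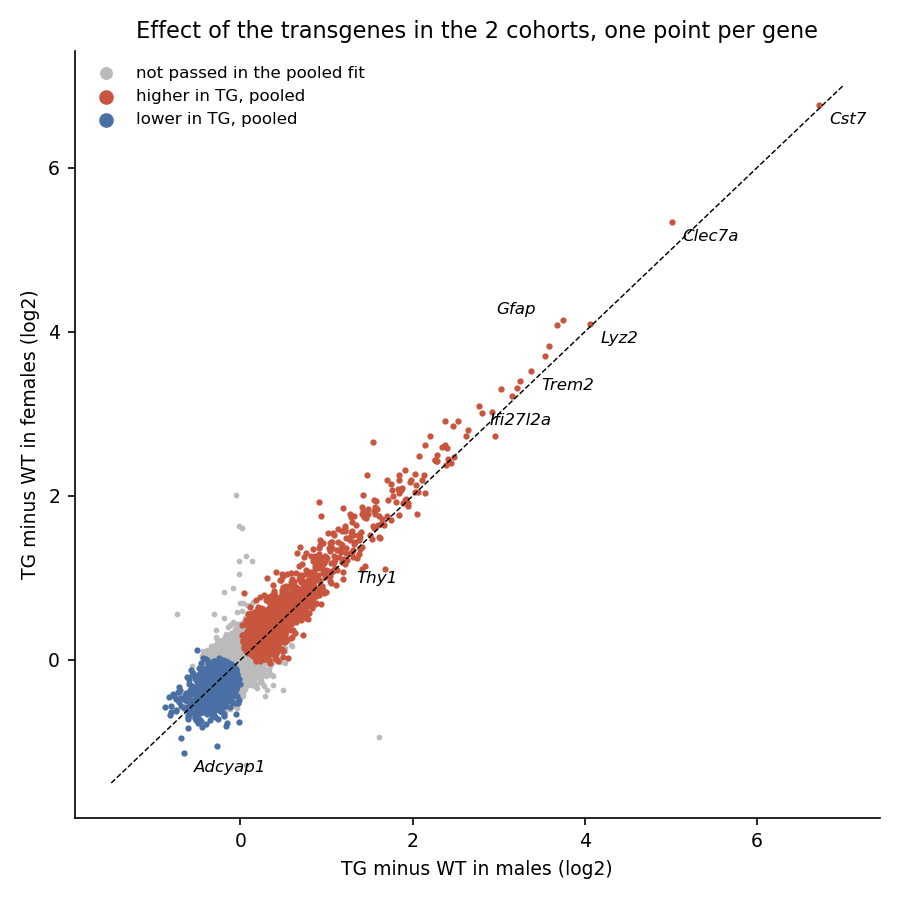
TG minus WT change of each of 17216 genes in males (horizontal axis) and females (vertical axis), on the log2 scale, coloured by the pooled call. Points scatter about the dashed line of equal change, up to Cst7 at 6.72 in males and 6.76 in females. Adcyap1, the largest pooled fall, is at -0.66 in males and -1.13 in females.

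The spread among TG arrays was described by list means, with no test of spread. The mean of the list of microglia around plaques had an SD of 0.48 in the 6 TG females and 0.20 in the 8 TG males, against 0.08 in WT mice of either sex. TG female 8 was lowest at 7.37 and TG female 4 highest at 8.58. The same pair bounded the interferon list in TG females, at 4.82 and 6.11. TG female 8 was also lowest of its group for the astrocyte list (8.89) and the ribosomal list (7.57) and highest for the potassium channel list (6.24), so its values lay nearest to WT on each of these.

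Pooling added small changes. A total of 1187 genes passed in the pooled comparison and in neither cohort alone, 443 higher and 744 lower, with a median size of 0.16. The 6 of smallest p were Wdr33 (-0.14), Klhl32 (-0.22), Krt10 (-0.22), Lemd1 (-0.42), Chchd6 (-0.19) and Naaa (0.22), an amidase that degrades lipid mediators in lysosomes. Wdr33, which takes part in cleavage of mRNA ends, fell by 0.13 in males and 0.15 in females. Conversely 429 genes that passed in a cohort did not pass in the pooled comparison.

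Arrays of the hippocampus of the same mice showed whether the changes differed between regions. In the hippocampus 1165 genes passed, 746 higher and 419 lower. Of these, 638 and 335 also passed in the same direction in the frontal cortex. The difference of the effect between regions passed for 1196 genes, 6.95% of those tested, with the cortical effect above the hippocampal one in 683 and below it in 513. With the mouse as a fixed replicate block the difference passed for 1431 genes and with the mouse as a random block for 1558. Without the hippocampus arrays of mice 4 and 7, which stood apart, it passed for 1831. Choroid plexus genes had a median change of 1.07 in the hippocampus and 0.04 in the cortex. The part of this tissue in the region differences was not tested.

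The 10 genes of smallest p all had a larger change in the cortex. Gfap rose by 3.92 in the cortex and 1.46 in the hippocampus, a difference of 2.46 (adjusted p = 1.8e-10). Lpl rose by 1.94 and 0.46, a difference of 1.48 (adjusted p = 9.8e-11). Cebpd, a transcription factor of inflamed astrocytes and macrophages, rose by 1.42 in the cortex and was at 0.14 in the hippocampus, where it did not pass. The others were the liprin Ppfia4 (1.11 and 0.22), the matricellular Sparc (1.27 and 0.41), Cyba (2.86 and 1.12), the tetraspanin Cd9 (2.45 and 1.06), Golm1 (1.01 and 0.16), the endosomal Washc2 (0.35 and -0.01) and Serpina3n (2.61 and 0.88).

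By list, the difference passed with the larger value in the cortex for 20 of 25 genes of plaque-associated microglia and 14 of 16 of homeostatic microglia. It did so for 20 of 27 lysosomal genes and 10 of 15 astrocyte genes, against 683 of all 17216 genes. Other lists were mixed or held no difference. The cortical value was above in 2 and below in 4 of 20 secretory genes, and above in 2 and below in 5 of 48 potassium channel genes. The difference passed for 0 of 13 genes of cholesterol synthesis and 0 of 23 of cortical layers. The median change of homeostatic microglia was 1.65 in the cortex and 0.75 in the hippocampus, and that of astrocytes 0.43 and 0.12. For immediate early genes the medians were -0.42 and -0.33, and the difference passed for 1 of 32. Thy1 rose by 1.20 in the cortex and 1.12 in the hippocampus, a difference of 0.07 (adjusted p = 0.77). Dusp1 was at -0.73 and -0.70 and Arc at -0.67 and -0.97, with no difference that passed.

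**Figure D5:**
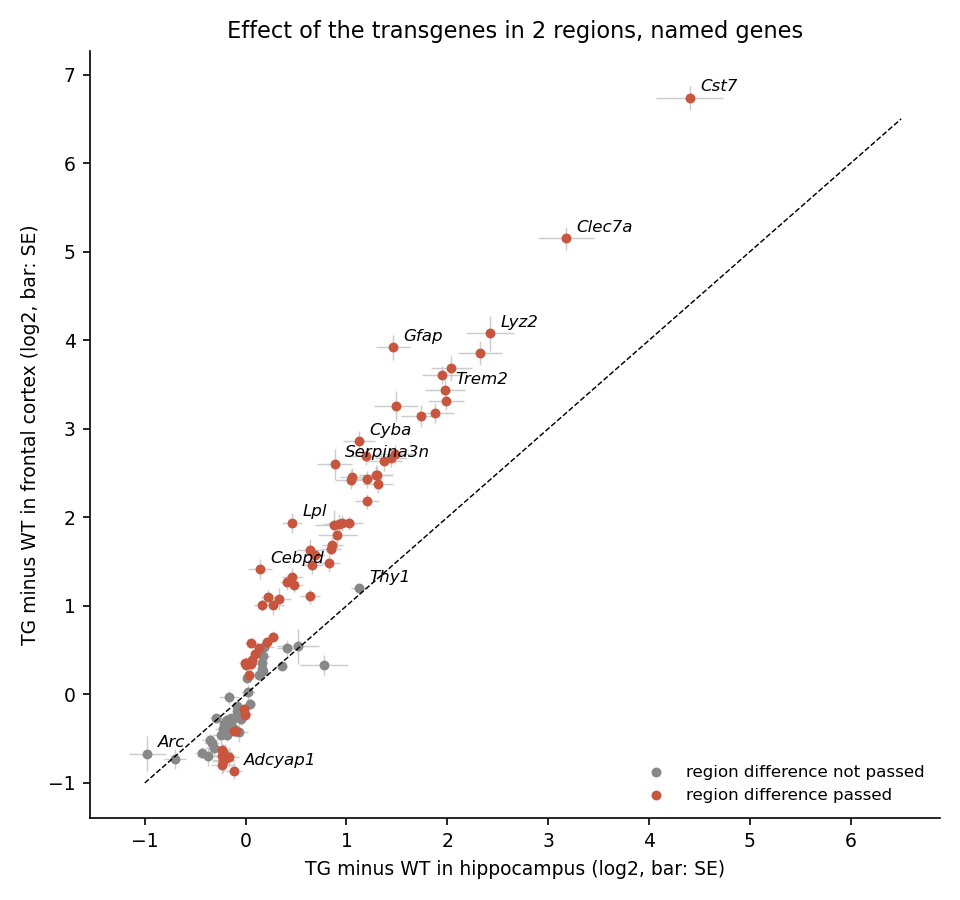
TG minus WT change of the 114 genes named by rule in the frontal cortex (vertical axis) and the hippocampus (horizontal axis), on the log2 scale with SE bars. Most microglial and astrocyte genes lie above the dashed line of equal change, Gfap at 3.92 against 1.46, while Thy1, at 1.20 and 1.12, lies close to it.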

How the data were processed

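Per the submitters' processing notes, the authors applied RMA in R 3.2.2, which gives each probe set a log2 value. RNA was labelled with the GeneChip HT 3′ IVT PLUS kit, per the labels' protocols. The chip definition and build are not given in the sources used here. Of 17856 probe sets 17216 carry a gene symbol in the platform annotation and were tested, and 640 do not. Values were used as deposited.

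The model, genotype plus cohort, was fitted to the 28 arrays with limma 3.58.1 (lmFit, eBayes) in R 4.3.3, two-sided, with Benjamini-Hochberg adjustment at 0.05. A fit of the 4 groups gave the effect in each cohort and its difference, and a fit over all 58 arrays gave the region difference. The pooled fit was tested on simulated data. The number of arrays limits the precision, and no detection calls were used.

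The rule names Thy1, App, 1 gene not reported here, near copies such as Hspa1a where measured, the 12 largest rises and falls, the 2 leading members by p (or fewer) of each of 43 lists that passed, the 6 leading genes passed only when pooled, the 3 leading genes of the cohort difference and the 10 of the region difference. Other list members are examples chosen after their values were seen. The members, lists and tests were chosen with earlier results of these data known. Of 1043 list entries, 842 distinct genes were measured. Alternatives changed the scaling, filter, prior, weights, cohort term, arrays and threshold, and a fit without 5 arrays was added after seeing the data. Per the labels' protocols both regions were taken from each mouse, so mouse numbers pair 28 mice. The deviations of a mouse's 2 arrays correlated at -0.033 to 0.363 (median 0.111). Promoters are from RefSeq (GRCm38.p6). Figures were drawn with matplotlib 3.10.9.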

Additional observations from a re-analysis of the deposited data

Results flagged for a closer look

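Among 114 genes in 4 groups, 456 sets of values, 31 held an array far from the rest of its group. Chance gives about 1 in 20, or 22.8. WT female 1 gave 7 of them: Cd68 was at 5.36, Gfap at 4.58 and S100b at 9.48, above the other WT females, and Deptor at 5.89, Dnajb4 at 7.93, Gabrb2 at 9.39 and Wdr33 at 5.58, below them. WT male 51 gave 6: Gfap at 4.99, Igf1 at 5.81 and Sparc at 8.98 were high and Ccne1 at 4.95, Foxp1 at 7.21 and Trem2 at 5.34 were low. WT male 42 gave 4, with Cd74 at 4.85, Csf1r at 8.56 and Notch3 at 3.86 high and Cldn11 at 5.95 low. TG female 4 gave 3, with Rpl26 at 12.79 and Rps14 at 10.56 high and Psmb7 at 8.09 low.

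TG female 8 was lowest of its group for Ctss, at 11.27, and Lgals3bp, at 7.49. WT female 2 was low for Ccnd1, at 7.71, and Fras1, at 6.03. In TG males, mouse 46 was high for Dnajb4, at 8.18, and low for S100b, at 9.41, mouse 53 was high for Cd3g, at 3.46, mouse 43 for Dusp1, at 9.04, and mouse 40 for Fcer1g, at 9.59. TG female 11 was low for Foxp1, at 7.12, and WT male 39 high for Washc2, at 8.49.

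The effect of the transgenes differed between frontal cortex and hippocampus by the test of the difference itself. The cortical minus hippocampal difference (log2) was 2.46 for Gfap, 1.73 for Cyba, 1.72 for Serpina3n, 1.48 for Lpl, 1.39 for Cd9, 1.28 for Cebpd, 0.89 for Ppfia4, 0.85 for Sparc, 0.85 for Golm1 and 0.36 for Washc2.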

How the results depend on the processing

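With equal array medians the genes that fell numbered 5048 in place of 3218, and those that rose 1683 in place of 2220. The cause was not tested. The other alternatives gave between 3936 (threshold 0.01) and 5681 (all 58 arrays) calls in place of 5438. Leaving out each array in turn gave 5097 to 5632 calls, 2082 to 2284 higher and 3015 to 3352 lower, with the lowest counts without TG female 4. The region difference called 1831 genes without the hippocampus arrays of mice 4 and 7 and, paired by mouse, 1431 with a fixed and 1558 with a random replicate block, in place of 1196. No named gene reversed. Calls were lost for Ptgds, Igfbp2, Arc and Cd3g, each under at least 1 alternative, and Zfp109 passed with quantile normalization (adjusted p = 0.0431).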
